A study of Homo sapiens with 8 samples.

Results

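The 10 genes described here supply a cell with serine, glycine, folate-bound carbon units, proline and imported amino acids. They are PHGDH, PSAT1 and PSPH of serine synthesis, SHMT2 and MTHFD2 of mitochondrial folate metabolism, ALDH18A1 and PYCR1 of proline synthesis, and the transporters SLC7A5, SLC3A2 and SLC1A5. They were chosen by name as members of these pathways, with earlier results of these data known. They make up 10 of the 19774 genes that had a probe set annotated to a single symbol. They were read by 17 probe sets, and each gene is represented by the probe set with the highest mean over the 8 arrays. All 17 probe sets lay above the level filter (log2 3.208) that left 14517 genes for testing.

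The study used 4 neuroblastoma cell lines of human origin and 8 Affymetrix 3' expression arrays of their total RNA, 1 for each line and treatment. In each line 1 culture condition was 2.5 µM ciclopirox (CPX), an antifungal drug that chelates iron, and the other was its vehicle, both for 48 h. The lines were SKNBE2 and NB1691, labelled N-Myc, SKNAS/shHIF1a, a stable HIF1a knockdown line that is also labelled N-Myc, and SKNAS, labelled c-Myc. All groups share the same RPMI-based growth medium, and whether the knockdown line is a single clone is not given in the sources used here. The values, RMA (robust multi-array average) signals from the authors, are on the log2 scale, where a difference of 1 is a 2-fold difference. The labels do not say that arrays came from separate cultures, so errors and p-values measure only the spread between these lines or arrays.

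Serine is made from the glycolytic intermediate 3-phosphoglycerate by PHGDH, PSAT1 and PSPH acting in sequence. In mitochondria SHMT2 splits serine into glycine and a carbon unit carried by folate, which MTHFD2 oxidises further for use in nucleotide synthesis. Proline is made from glutamate by ALDH18A1 and a PYCR enzyme, and the exchangers at the cell surface bring in leucine, glutamine and other neutral amino acids. Many of these genes are known as targets of ATF4, the transcription factor of the amino acid response, and N-Myc is known to raise serine synthesis genes in neuroblastoma.

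Because E-boxes (CACGTG) are the sites of Myc proteins and TGATGNAA is an element bound by ATF4 with C/EBP partners, the 250 bases before each annotated gene start were searched on both strands for these letters and for ACGTG, the core of the element bound by hypoxia-inducible factor. ACGTG is contained in CACGTG. The windows come from RefSeq (GRCh38.p14), whose table held 11 windows for 7 of the 10 genes. The 3 windows shown are the first-listed windows of the genes in which CACGTG or ACGTG was found there. They are SLC7A5 (chr16:87869508-87869757, minus strand), ALDH18A1 (chr10:95656712-95656961, minus strand) and MTHFD2 (chr2:74198365-74198614, plus strand). Each reads 5′ to 3′ on the gene's strand, and capitals mark the motif letters on either strand.
SLC7A5: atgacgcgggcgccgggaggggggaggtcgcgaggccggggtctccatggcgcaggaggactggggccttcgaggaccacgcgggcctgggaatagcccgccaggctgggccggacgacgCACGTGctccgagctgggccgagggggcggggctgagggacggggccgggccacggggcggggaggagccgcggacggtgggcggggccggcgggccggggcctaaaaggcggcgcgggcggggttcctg
ALDH18A1: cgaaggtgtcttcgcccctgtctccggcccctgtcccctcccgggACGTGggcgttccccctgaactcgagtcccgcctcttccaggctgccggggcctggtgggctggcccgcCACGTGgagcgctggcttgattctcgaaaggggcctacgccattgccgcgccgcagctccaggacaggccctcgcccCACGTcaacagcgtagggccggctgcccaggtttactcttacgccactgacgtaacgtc
MTHFD2: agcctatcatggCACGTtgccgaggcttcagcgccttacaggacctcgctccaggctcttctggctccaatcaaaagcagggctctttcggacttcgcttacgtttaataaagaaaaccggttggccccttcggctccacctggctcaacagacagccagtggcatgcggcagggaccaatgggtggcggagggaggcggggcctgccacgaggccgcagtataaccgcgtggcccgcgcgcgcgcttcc

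SLC7A5 held a CACGTG that begins at position -130 from its start, and ALDH18A1 held one at -136 with further ACGTG matches on both sides. MTHFD2 held a single ACGTG match, at -238, on the strand opposite to the gene. A second SLC1A5 window also held CACGTG, so that 3 of the 7 genes had it, against 7.73% of 27305 genes with a window and 6.34% of 35116 windows. ACGTG was found in 4 of the 7 genes, against 21.7% of genes and 18.5% of windows. TGATGNAA was found in 1 of the 7 genes, in another SLC1A5 window, against 3.89% of genes and 3.14% of windows. Such matches describe letters only, and windows were not tested for binding.

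MYC and MYCN separated the lines by origin and not by the label of the knockdown line. Under vehicle, MYCN had log2 levels of 12.48 in SKNBE2 and 12.05 in NB1691, against 5.41 in SKNAS/shHIF1a and 2.77 in SKNAS. MYC was at 2.66 in SKNBE2 and 2.70 in NB1691, against 9.86 in SKNAS/shHIF1a and 10.16 in SKNAS. HIF1A, the targeted gene, had 11.09 under ciclopirox and 11.71 under vehicle in SKNAS/shHIF1a, against 11.94 and 12.25 in SKNAS. Lines are therefore compared below by origin, NB1691 and SKNBE2 against the SKNAS-derived pair, which are not independent of each other.

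Markers of the neuroblastoma state also divided along this line. Of 6 noradrenergic markers, 5 had all arrays of NB1691 and SKNBE2 above all arrays of the SKNAS-derived lines, and the list's mean log2 level was 8.99 to 9.45 in NB1691 and SKNBE2, against 5.83 to 6.71 in the SKNAS-derived lines. TH, the first enzyme of catecholamine synthesis, was at 6.32 to 7.99 in NB1691 and SKNBE2, against 3.15 to 3.59 in the SKNAS-derived lines, which is near the level filter. Of 5 mesenchymal markers, 4 ran the other way, with list means of 6.08 to 6.80 in NB1691 and SKNBE2, against 8.83 to 10.41 in the SKNAS-derived lines. The leukocyte marker PTPRC was at 3.03 to 3.29 in NB1691 and SKNBE2, against 6.34 to 11.53 in the SKNAS-derived lines. The leukocyte marker CD68 did not divide in this way. It was at 5.38 and 4.31 under ciclopirox and vehicle in NB1691, 2.93 and 3.09 in SKNBE2, and 3.06 to 4.45 in the SKNAS-derived lines. Below the level filter lay 2 of 4 leukocyte markers (CD3E and CD14), 1 of 4 epithelial markers (CDH1) and 2 of 4 endothelial markers (CDH5 and KDR). Of the other epithelial markers, KRT18 was at 3.08 to 3.38 in NB1691 and SKNBE2, against 6.69 to 10.87 in the SKNAS-derived lines. EPCAM ran the other way, at 3.05 to 3.34 in the SKNAS-derived lines and 3.56 at its lowest in NB1691 and SKNBE2. KRT8 reached 5.11 in SKNAS under ciclopirox and lay between 3.04 and 3.86 on the other arrays. Of the other endothelial markers, VWF reached 4.94 to 6.15 in NB1691 and lay between 2.82 and 3.31 in the other lines. PECAM1 reached 5.46 under ciclopirox and 3.97 under vehicle in SKNAS/shHIF1a, and lay between 2.78 and 3.77 in the other lines. The part of these states in the differences between lines described below was not tested.

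The level of all 10 genes was higher on average in NB1691 and SKNBE2 than in the SKNAS-derived lines, by 0.37 for SLC1A5 to 3.94 for PHGDH on the log2 scale. All 10 differences stayed positive with each line left out, but SLC1A5 ran from 0.047 without SKNBE2 to 0.69 without NB1691, and MTHFD2 from 0.34 without SKNAS to 1.25 without SKNAS/shHIF1a. With the lines as units, none of the 10 passed (limma on 4 line means, adjusted p of 0.113 for PYCR1 to 0.552 for SLC1A5), and 3.68% of all genes did. That share changed widely with single lines left out. Without NB1691 or SKNBE2, 1 line stands against the SKNAS-derived pair, and the spread is only that between SKNAS and its derivative. Calls of the 10 genes in such fits are therefore not given for levels. The SHMT2 difference was 1.77 without NB1691 and 0.80 without SKNBE2, and the PSPH difference was 0.73 and 1.21. On 5 genes, PHGDH, PSPH, SHMT2, PYCR1 and SLC7A5, all 4 arrays of NB1691 and SKNBE2 lay above all 4 arrays of the SKNAS-derived lines, which held for 15.7% of all genes. SLC7A5 met this only narrowly, with its lowest NB1691 array at 9.5329 and its highest SKNAS/shHIF1a array at 9.5323. For SHMT2 the margin was also small, with 10.19 in NB1691 and 10.12 in SKNAS/shHIF1a, both under vehicle. PSPH met it on its brightest probe set only. On its second probe set NB1691 was at 8.44 under ciclopirox, below SKNAS/shHIF1a at 8.86 under vehicle. SKNBE2 had the highest mean of its 2 arrays for 7 genes and NB1691 for PSPH, MTHFD2 and PYCR1. SKNAS had the lowest for 8 genes, and SKNAS/shHIF1a for PSPH and ALDH18A1. These orders are those of the brightest probe sets, and that of PSPH changed with the probe set. Fewer cells of a type and less RNA per cell cannot be told apart in such bulk samples.

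**Figure D1:**
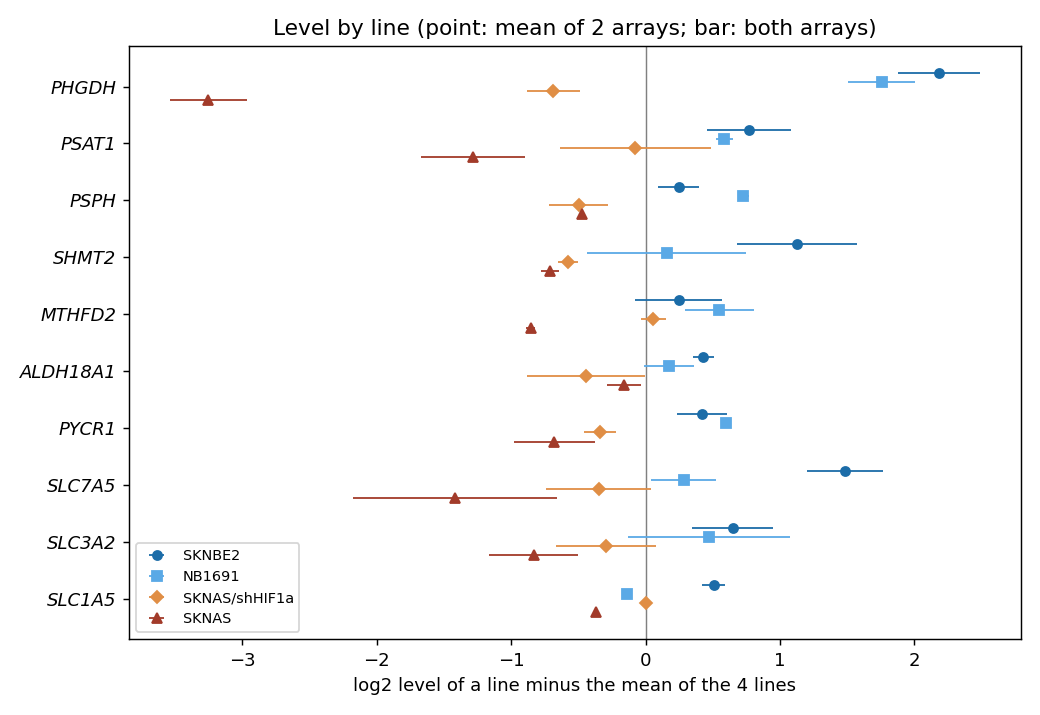
Level of each of the 10 genes in each line, as the log2 level minus the gene's mean over the 4 lines (horizontal axis), with a point at the mean of the ciclopirox and vehicle arrays and a bar joining both. PHGDH has the widest spread between lines, with SKNAS lowest, and ALDH18A1 and SLC1A5 the narrowest.

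Single lines were then compared pairwise, with the spread taken between arrays after a common treatment effect. Of 60 pairs of lines over the 10 genes, 27 passed (limma, adjusted p under 0.05 over all 14517 genes of a contrast). SKNBE2 was higher than SKNAS in 8 genes (all but PSPH and ALDH18A1), against 14.8% of all genes called higher in that contrast. NB1691 was higher than SKNAS in 7 genes (all but SHMT2, ALDH18A1 and SLC1A5), against 18.9% of all genes. SKNBE2 was higher than SKNAS/shHIF1a in 6 genes, PHGDH, PSPH, SHMT2, ALDH18A1, SLC7A5 and SLC3A2, against 14.8% of all genes. NB1691 was higher than SKNAS/shHIF1a in 4 genes, PHGDH, PSPH, PYCR1 and SLC3A2, against 18.7% of all genes. Between the MYCN-high lines, SKNBE2 was higher than NB1691 in 1 gene, SLC1A5, against 12.2% of all genes. No gene of the 10 was called lower in any of these contrasts as written, SKNBE2 or NB1691 first.

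PHGDH, which catalyses the first step of serine synthesis, showed the widest differences between lines. Its log2 levels were 10.47 under ciclopirox and 9.86 under vehicle in SKNBE2, 9.99 and 9.48 in NB1691, 7.10 and 7.49 in SKNAS/shHIF1a, and 5.01 and 4.44 in SKNAS. The ranges of the lines did not overlap except those of SKNBE2 and NB1691. SKNBE2 exceeded SKNAS by 5.44 ± 0.28 (SE, 2 arrays a line), a 43.4-fold difference (limma, adjusted p = 1.2e-04), and NB1691 exceeded SKNAS/shHIF1a by 2.44 ± 0.28 (adjusted p = 0.0017). SKNBE2 and NB1691, neighbours in the order, differed by 0.43, which did not pass (adjusted p = 0.330).

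PSAT1, the transaminase that follows PHGDH, had mean log2 levels of 11.93 in SKNBE2, 11.74 in NB1691, 11.08 in SKNAS/shHIF1a and 9.87 in SKNAS. No neighbours in that order passed, and SKNBE2 exceeded SKNAS by 2.06 ± 0.41 (limma, adjusted p = 0.014). PSPH, the phosphatase that releases serine, was highest in NB1691 on its brightest probe set. Means there were 10.44 in NB1691, 9.96 in SKNBE2, 9.24 in SKNAS and 9.21 in SKNAS/shHIF1a. The second PSPH probe set did not keep this order. Under ciclopirox and vehicle it was at 9.74 and 8.47 in SKNBE2 and 8.44 and 8.98 in NB1691. In SKNAS/shHIF1a it was at 7.62 and 8.86, and in SKNAS, the lowest line there, at 7.32 and 7.72. The comparisons that follow use the brightest probe set. NB1691 exceeded SKNAS by 1.20 ± 0.22 (adjusted p = 0.0080), whereas SKNBE2 exceeded it by 0.72 and narrowly did not pass (adjusted p = 0.052). With the mean of the PSPH probe sets in place of the brightest, its calls against SKNAS/shHIF1a were lost for NB1691 (adjusted p = 0.114) and SKNBE2 (adjusted p = 0.251).

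For SHMT2, the means were 11.75 in SKNBE2, 10.78 in NB1691, 10.04 in SKNAS/shHIF1a and 9.91 in SKNAS. SKNBE2 exceeded SKNAS by 1.84 ± 0.35 (limma, adjusted p = 0.012) and no neighbours passed. MTHFD2, the next enzyme of the mitochondrial pathway, averaged 12.00 in NB1691, 11.70 in SKNBE2, 11.51 in SKNAS/shHIF1a and 10.60 in SKNAS. SKNAS stood apart in MTHFD2, its arrays at 10.56 and 10.63 under ciclopirox and vehicle lying below the lowest array of any other line, 11.38.

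Among the proline enzymes, ALDH18A1, which makes the precursor of proline from glutamate, spanned 0.87 between SKNBE2 (mean 10.23) and SKNAS/shHIF1a (mean 9.36), and only that pair passed (limma, adjusted p = 0.031). PYCR1, which reduces the precursor to proline, averaged 7.53 in NB1691, 7.35 in SKNBE2, 6.59 in SKNAS/shHIF1a and 6.25 in SKNAS. NB1691 exceeded SKNAS by 1.28 ± 0.26 in PYCR1 (adjusted p = 0.012).

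Among the transporters, SLC7A5, the catalytic chain of the leucine exchanger LAT1, averaged 10.97 in SKNBE2, 9.78 in NB1691, 9.14 in SKNAS/shHIF1a and 8.07 in SKNAS. The difference of 2.90 ± 0.44 between SKNBE2 and SKNAS was 7.49-fold (limma, adjusted p = 0.0052). SLC3A2, the heavy chain that pairs with SLC7A5, kept the same order of lines, with means of 7.70 in SKNBE2, 7.53 in NB1691, 6.76 in SKNAS/shHIF1a and 6.22 in SKNAS. In SLC3A2 the neighbours NB1691 and SKNAS/shHIF1a differed by 0.77 (adjusted p = 0.031), and the other neighbours did not pass. SLC1A5, the glutamine exchanger ASCT2, averaged 7.40 in SKNBE2, 6.89 in SKNAS/shHIF1a, 6.75 in NB1691 and 6.52 in SKNAS, and was the only member in which NB1691 did not lie above SKNAS/shHIF1a.

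The knockdown line was set against its parent in the same fit. PHGDH was higher in SKNAS/shHIF1a by 2.57 ± 0.28 (limma, adjusted p = 0.015), with arrays at 7.10 and 7.49 in SKNAS/shHIF1a, against 5.01 and 4.44 in SKNAS. It was the 1 gene of the 10 called, against 0.744% of all genes called higher. Differences for the other 9 genes ran from -0.28 for ALDH18A1 to 1.21 for PSAT1, and PSPH and ALDH18A1 were the 2 of the 10 with a negative difference. PSAT1, at 10.52 and 11.64 in SKNAS/shHIF1a against 9.49 and 10.26 in SKNAS, did not pass (adjusted p = 0.309), and neither did MTHFD2 with a difference of 0.91 (adjusted p = 0.217). With 1 derivative line, the knockdown and any other difference between that line and its parent cannot be told apart.

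**Figure D2:**
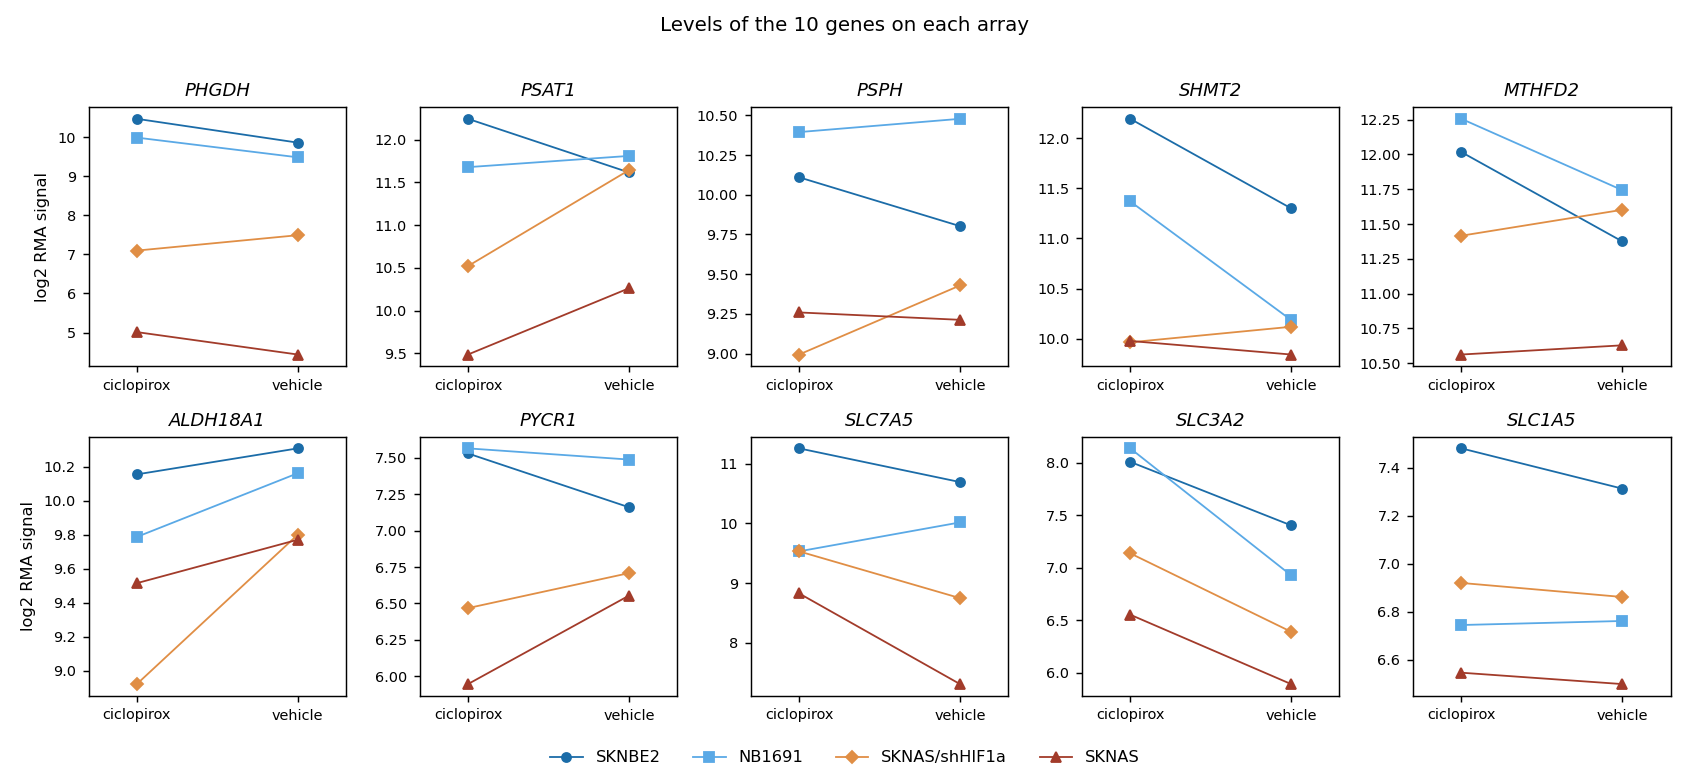
log2 RMA signal of the 10 genes on each of the 8 arrays (vertical axis, a scale of its own in each panel), with ciclopirox left of vehicle and a line joining the arrays of 1 cell line. SLC3A2 is higher and ALDH18A1 lower under ciclopirox in every line, and PHGDH is lowest in SKNAS under both treatments.

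Under ciclopirox none of the 10 genes passed the test over all genes (limma with the cell line as a block, adjusted p of 0.139 for SLC3A2 to 0.912 for PSPH). The same was true of every gene on the array, with 0% called and a smallest adjusted p of 0.121, while 2599 of 14517 had an unadjusted p under 0.05. At that unadjusted level 1 gene of the 10 was higher, SLC3A2, and 1 was lower, ALDH18A1, against 7.67% of all genes higher and 10.2% lower. SLC3A2 was also the 1 gene of the 10 higher in all 4 lines, against 11.8% of all genes, and ALDH18A1 the 1 lower in all 4 lines, against 16%. These shares are close to those of all genes. The number of genes higher under ciclopirox was 9 of 10 in SKNBE2, 5 in NB1691, 3 in SKNAS/shHIF1a and 6 in SKNAS, and the median log2 change of the 10 was 0.58, 0.03, -0.21 and 0.05 in these lines. The median over all genes tested lay between -0.03 and -0.01 in each line.

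**Figure D3:**
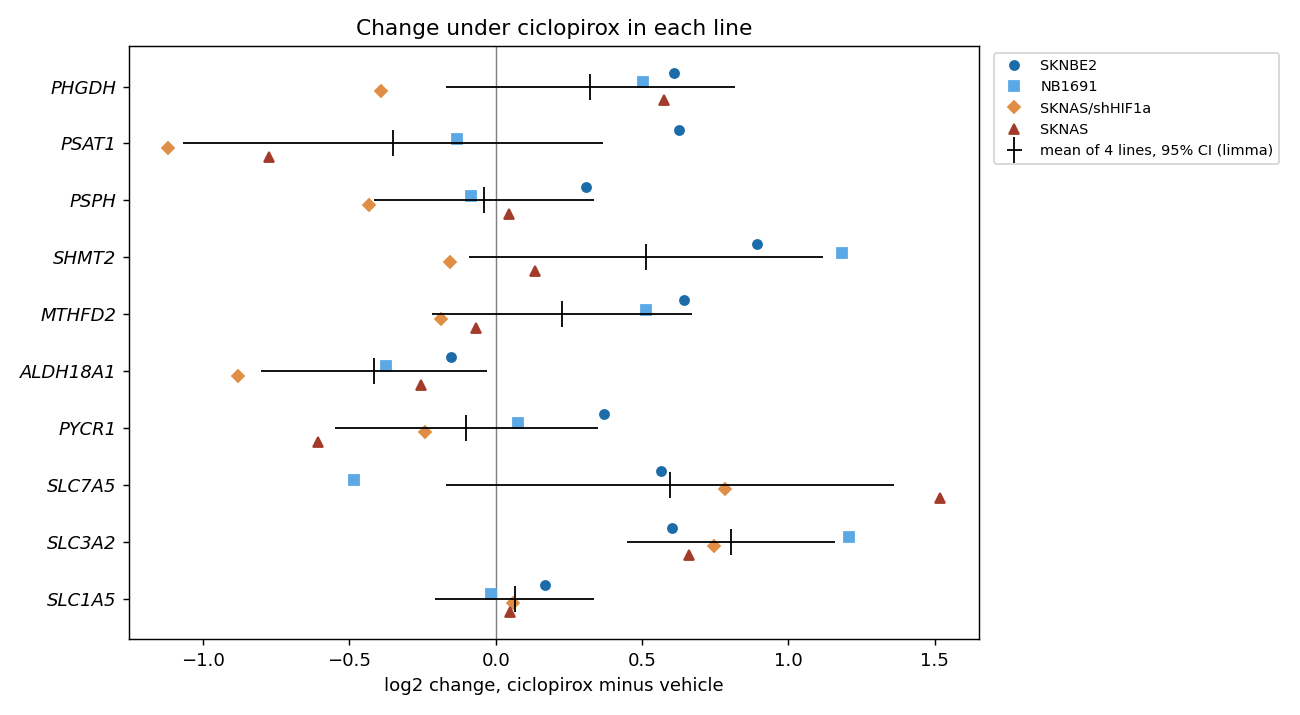
log2 change under ciclopirox (ciclopirox minus vehicle, horizontal axis) of each gene in each of the 4 lines, with the mean of the lines as a tick and its 95% confidence interval from limma as a bar. The 4 changes of SLC3A2 lie between 0.60 and 1.21, and those of ALDH18A1 between -0.88 and -0.15.

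SLC3A2 was the gene of the 10 with the lowest p. Its log2 levels under ciclopirox were 8.01 in SKNBE2, 8.13 in NB1691, 7.14 in SKNAS/shHIF1a and 6.55 in SKNAS, against 7.40, 6.93, 6.39 and 5.89 under vehicle. The change was positive in every line and averaged 0.80 ± 0.15 (SE, n = 4 lines), a 1.75-fold difference with a 95% interval of 1.36 to 2.23. Its unadjusted p ranked 155th among 14517 genes (limma, adjusted p = 0.139), so it did not pass. The error and interval count the SKNAS-derived lines as separate, although they are not independent. With that pair averaged, the mean change was 0.84 (limma, adjusted p = 0.3725).

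SLC7A5, the partner of SLC3A2, had changes that were less even between lines. Its levels under ciclopirox were 11.26 in SKNBE2, 9.53 in NB1691, 9.53 in SKNAS/shHIF1a and 8.83 in SKNAS, against 10.69, 10.02, 8.75 and 7.31 under vehicle. The change was 1.52 in SKNAS, the only gene of the 10 at least 2-fold higher there (3.38% of all genes), and -0.48 in NB1691, with a mean of 0.59 ± 0.31 (SE, n = 4 lines, limma, adjusted p = 0.362). The SLC7A5 mean was 0.29 without SKNAS and 0.95 without NB1691. In NB1691, therefore, SLC3A2 was higher under ciclopirox by 1.21 while SLC7A5 was lower by 0.48, which is a pair of single-array differences with no replicate. SLC1A5 had changes of 0.17 in SKNBE2, -0.02 in NB1691, 0.06 in SKNAS/shHIF1a and 0.05 in SKNAS, and its interval of -0.21 to 0.34 leaves out a 2-fold change of the mean in either direction.

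SHMT2 and MTHFD2 had positive changes in SKNBE2 and NB1691, although neither passed over the 4 lines. SHMT2 had log2 levels of 12.19 in SKNBE2, 11.37 in NB1691, 9.96 in SKNAS/shHIF1a and 9.98 in SKNAS under ciclopirox, against 11.30, 10.19, 10.12 and 9.84 under vehicle. Its changes were 0.89 in SKNBE2 and 1.18 in NB1691, against -0.15 in SKNAS/shHIF1a and 0.14 in SKNAS, with a mean of 0.51 ± 0.25 (SE, n = 4 lines, limma, adjusted p = 0.328) that was 0.29 without NB1691 and 0.74 without SKNAS/shHIF1a. On the brightest probe sets, SHMT2 and SLC3A2 were the 2 genes at least 2-fold higher in NB1691 (3.31% of all genes). In SKNBE2, 0 of the 10 were (2.11% of all genes). MTHFD2 had 12.02 in SKNBE2, 12.26 in NB1691, 11.42 in SKNAS/shHIF1a and 10.56 in SKNAS under ciclopirox, against 11.38, 11.74, 11.60 and 10.63 under vehicle. Its changes were 0.64 in SKNBE2 and 0.51 in NB1691, against -0.19 in SKNAS/shHIF1a and -0.07 in SKNAS, with a mean of 0.23 ± 0.18 (adjusted p = 0.546). Without SKNBE2 the MTHFD2 mean was 0.087, without NB1691 0.13 and without SKNAS/shHIF1a 0.36.

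In each of the 3 serine synthesis enzymes SKNBE2 had the highest change and SKNAS/shHIF1a the lowest, and none passed. PHGDH had changes of 0.61 in SKNBE2, 0.50 in NB1691 and 0.57 in SKNAS, but -0.39 in SKNAS/shHIF1a, with a mean of 0.32 ± 0.20 (SE, n = 4 lines, limma, adjusted p = 0.432) that was 0.56 without SKNAS/shHIF1a. PSAT1 had 12.24 in SKNBE2, 11.68 in NB1691, 10.52 in SKNAS/shHIF1a and 9.49 in SKNAS under ciclopirox, against 11.62, 11.81, 11.64 and 10.26 under vehicle. The PSAT1 changes ran from 0.63 in SKNBE2 to -1.12 in SKNAS/shHIF1a, with a mean of -0.35 ± 0.29 (adjusted p = 0.561). On the brightest probe sets PSAT1 was the 1 gene of the 10 at least 2-fold lower in SKNAS/shHIF1a (4.31% of all genes). The PSAT1 mean was -0.68 without SKNBE2, -0.21 without SKNAS and -0.093 without SKNAS/shHIF1a. The 4 lines spread from 9.49 to 12.24 under ciclopirox in PSAT1, against 10.26 to 11.81 under vehicle. Without SKNAS, the lowest line under both, the spread was 10.52 to 12.24, against 11.62 to 11.81. PSPH had changes of 0.31 in SKNBE2, -0.08 in NB1691, -0.43 in SKNAS/shHIF1a and 0.05 in SKNAS, with a mean of -0.04 ± 0.15.

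Of the proline enzymes, ALDH18A1 was lower under ciclopirox in each line, with levels of 10.16 in SKNBE2, 9.79 in NB1691, 8.92 in SKNAS/shHIF1a and 9.51 in SKNAS, against 10.31, 10.16, 9.80 and 9.77 under vehicle. The mean change was -0.42 ± 0.16 (SE, n = 4 lines, limma, unadjusted p = 0.038, adjusted p = 0.259), with the change of -0.88 in SKNAS/shHIF1a the furthest from 0 and a mean of -0.26 without that line. PYCR1 had changes of 0.37 in SKNBE2 and 0.08 in NB1691, against -0.24 in SKNAS/shHIF1a and -0.61 in SKNAS, and a mean of -0.10 ± 0.18 (adjusted p = 0.804). Under ciclopirox the noradrenergic markers had negative median changes of -0.03 in SKNBE2, -0.50 in NB1691, -0.75 in SKNAS/shHIF1a and -0.52 in SKNAS. Of the 6, 2 were lower in all lines, against 16% of all genes. Their list means were 5.83 to 9.19 under ciclopirox, against 6.68 to 9.45 under vehicle. The mesenchymal markers had median changes of 0.59 in SKNBE2, -0.06 in NB1691, 0.77 in SKNAS/shHIF1a and 0.32 in SKNAS. Of the 5, 2 were higher in all lines, against 11.8% of all genes. Their list means were 6.65 to 10.41 under ciclopirox, against 6.08 to 9.89 under vehicle. The leukocyte marker PTPRC had changes of 0.06 in SKNBE2, -0.09 in NB1691, -3.23 in SKNAS/shHIF1a and -1.11 in SKNAS, and CD68 had -0.16, 1.06, 1.23 and 1.04 in the same lines. The part of these markers in the changes of the 10 genes was not tested.

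The change under ciclopirox was then compared between line origins, NB1691 and SKNBE2 minus the SKNAS-derived lines. None of the 10 genes passed (limma on the 4 changes, adjusted p of 0.274 for SHMT2 to 0.982 for SLC1A5), and 5 of 14517 genes did (0.0344%), with 0 called when any 1 of the 4 lines was left out. The difference was positive for 9 of the 10 genes and for 7442 of all 14517. It was 1.19 ± 0.34 for PSAT1, 1.05 ± 0.26 for SHMT2, 0.70 ± 0.23 for MTHFD2 and 0.65 ± 0.27 for PYCR1 (SE, n = 4 lines). SLC7A5 ran the other way, with a difference of -1.11 ± 0.45 (adjusted p = 0.456). MTHFD2 and PYCR1 were the 2 genes of the 10 that were higher under ciclopirox in both NB1691 and SKNBE2 and lower in both SKNAS-derived lines, against 6.53% of all genes.

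Where a gene had several probe sets, 5 of the 10, the others were read as a check. The 3 probe sets of SHMT2 gave mean changes of 0.50 to 0.64, with changes of 0.89 to 1.28 in SKNBE2 and 1.18 to 1.51 in NB1691. In SKNAS the SHMT2 changes were near 0 and differed in sign, at 0.14, 0.02 and -0.01 from the brightest probe set to the dimmest. Both probe sets of ALDH18A1 were lower under ciclopirox in all 4 lines, with means of -0.42 and -0.58, and the second PSAT1 probe set had changes of 0.83 in SKNBE2, -0.10 in NB1691, -1.30 in SKNAS/shHIF1a and -1.19 in SKNAS. The second MTHFD2 probe set kept the sign of each line, with changes of 1.12 in SKNBE2, 0.56 in NB1691, -0.64 in SKNAS/shHIF1a and -0.36 in SKNAS. Counts of genes changed at least 2-fold hold for the brightest probe sets only. In SKNBE2 the other SHMT2 probe sets changed by 1.04 and 1.28. In SKNAS/shHIF1a the second probe sets of ALDH18A1 and PSPH changed by -1.14 and -1.24. PSPH differed most between its probe sets. Its probe sets gave changes in SKNBE2 of 0.31, 1.26 and -0.76, from the brightest to the dimmest, and mean changes of -0.04, -0.23 and -0.55. The brightest PSPH probe set carries the suffix that Affymetrix gives to probes shared by several transcripts and the dimmest the suffix for probes that can cross-hybridise, and PSPH has near-identical pseudogene copies, so its values are uncertain. The probe sets used for PSAT1, SHMT2, PYCR1, SLC7A5 and SLC3A2 carry the same suffix for shared probes, and the second MTHFD2 probe set the one for cross-hybridisation.

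**Figure D4:**
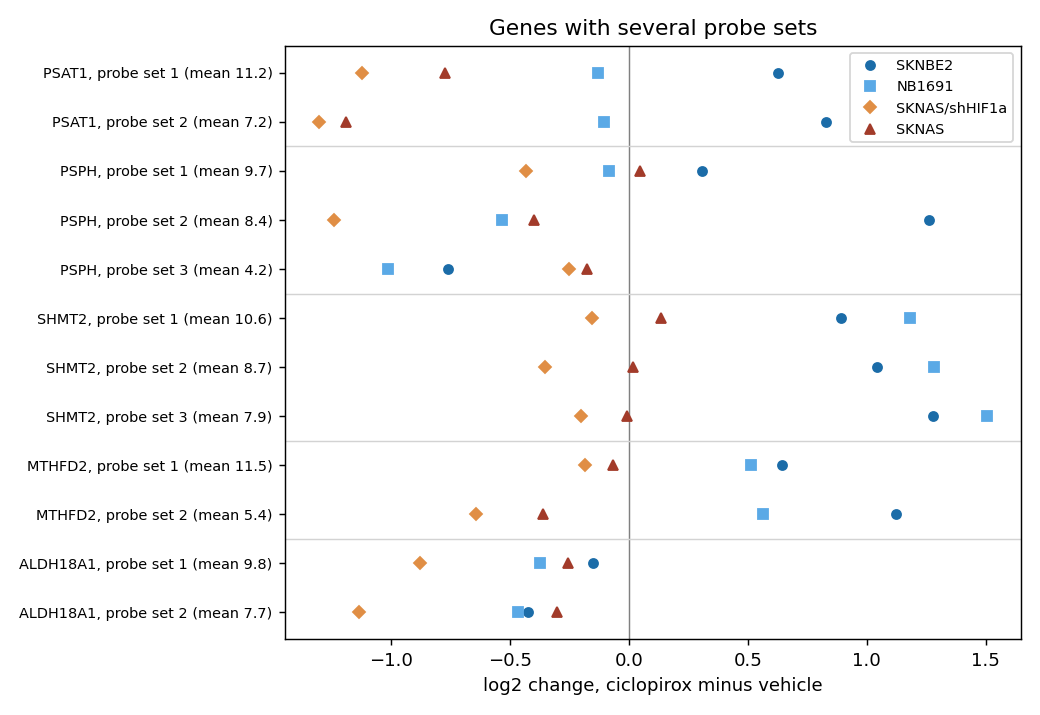
log2 change under ciclopirox (ciclopirox minus vehicle, horizontal axis) in each line for every probe set of the 5 genes with several, ordered within a gene by the mean log2 level over 8 arrays given in the label. The probe sets of SHMT2, ALDH18A1, PSAT1 and MTHFD2 keep nearly the same arrangement of lines, and those of PSPH do not.

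Over the 8 arrays the levels of the 10 genes were positively correlated. All 45 pairs of genes had a Pearson r above 0, from 0.23 for ALDH18A1 with SLC3A2 to 0.91 for PSAT1 with PYCR1, with a median of 0.70. The arrays share 4 lines, so these values mainly describe the order of the lines and are given without a test. The mean profile of the 10 genes, each centred on its own mean, was 1.04 under ciclopirox and 0.57 under vehicle in SKNBE2, 0.64 and 0.40 in NB1691, -0.41 and -0.23 in SKNAS/shHIF1a, and -0.94 and -1.07 in SKNAS. Of 14507 other genes tested, the 5 with the highest Pearson r to this profile over the 8 arrays were the splicing factor RBFOX2 (0.985), the zinc finger gene ZNF614 (0.981), the potassium channel gene KCNT2 (0.980), the guidance molecule gene RGMA (0.977) and the PACAP receptor gene ADCYAP1R1 (0.977). ADCYAP1R1 was at 8.13 and 7.71 under ciclopirox and vehicle in SKNBE2, 7.62 and 7.70 in NB1691, 4.38 and 5.15 in SKNAS/shHIF1a, and 2.47 and 3.14 in SKNAS.

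Other genes of the same pathways were read as lists beside the 10. In the ciclopirox test no gene of any list passed over all genes (0 in limma for each list). At an unadjusted p under 0.05 in limma, 7.67% of all genes were higher and 10.2% lower. In all 4 lines, 11.8% of all genes were higher and 16% lower. Of 14 other proline, glutamate and aspartate enzymes, 0 were higher and 1 lower, and of 19 other transporters 0 were higher and 1 lower. Of 19 aminoacyl-tRNA synthetases, 1 was higher and 1 lower, and of the 13 genes of the ATF4 list 7 were higher and 0 lower. Of 20 other serine, glycine and folate enzymes tested, 1 was higher and 4 were lower at an unadjusted p under 0.05, and 1 was higher and 3 were lower in all 4 lines, with a median change of -0.08. MTHFD2L, a mitochondrial relative of MTHFD2, had changes of -0.93 in SKNBE2, -0.58 in NB1691, -0.48 in SKNAS/shHIF1a and -1.66 in SKNAS, a mean of -0.91 ± 0.22 (SE, n = 4 lines, adjusted p = 0.166). SFXN3, of the sideroflexin family of mitochondrial serine carriers, had 0.64, 1.44, 0.43 and 0.72 in the same lines (adjusted p = 0.165). MTHFD2L was thus lower in NB1691 and SKNBE2 where MTHFD2 was higher.

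Among 14 other proline, glutamate and aspartate enzymes, 0 were higher and 4 were lower in all 4 lines, against 11.8% and 16% of all genes. Their median change was -0.01 in SKNBE2, -0.03 in NB1691, -0.23 in SKNAS/shHIF1a and -0.06 in SKNAS. ALDH4A1, which oxidises the proline precursor back to glutamate, had changes of -0.57 in SKNBE2, -1.17 in NB1691, -0.49 in SKNAS/shHIF1a and -0.16 in SKNAS (adjusted p = 0.210). ARG2, the mitochondrial arginase, had 1.73 in SKNBE2 and 1.69 in NB1691, against -0.68 in SKNAS/shHIF1a and 0.09 in SKNAS (adjusted p = 0.431 for the mean, and 0.181 for the difference by origin). Of 19 other amino acid transporters tested, 1 was higher and 1 was lower in all 4 lines, against the same shares, with a median of 0.03. SLC1A4, a relative of SLC1A5 that carries alanine, serine and cysteine, had 2.57 in SKNBE2, 0.95 in NB1691, -0.52 in SKNAS/shHIF1a and 0.70 in SKNAS, and the arginine and lysine transporter SLC7A3 had 1.66 in SKNBE2 with a mean of 0.50.

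The aminoacyl-tRNA synthetases, which load amino acids for translation, had a median change of 0.01 over 19 genes. In all 4 lines 3 were higher and 3 lower, against 11.8% and 16% of all genes. The difference by origin was positive for 18 of the 19, with a median of 0.38, which is close to the median of 0.39 for the 10 genes and set against 0.01 for all genes tested. WARS1, the tryptophan enzyme, had a mean change of 0.67 ± 0.18 (adjusted p = 0.184) and VARS1, the valine enzyme, of -0.64 ± 0.14 (SE, n = 4 lines, adjusted p = 0.155). The 13 regulators and stress targets of ATF4 had median changes of 1.76 in SKNBE2, 0.49 in NB1691, 0.23 in SKNAS/shHIF1a and 0.41 in SKNAS. Of them, 6 were higher in all 4 lines and 0 lower, against 11.8% and 16% of all genes. This list was chosen with earlier results of these data known, so its values are a description and not a test. The secreted glycoprotein gene STC2 had a mean change of 1.59 ± 0.16 (SE, n = 4 lines, adjusted p = 0.121), and the transcription factor gene ATF5 had one of 1.83 ± 0.52 (adjusted p = 0.191). In SKNBE2, where the ATF4 list had its highest median, the 10 genes also had theirs, a description of single arrays.

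**Figure D5:**
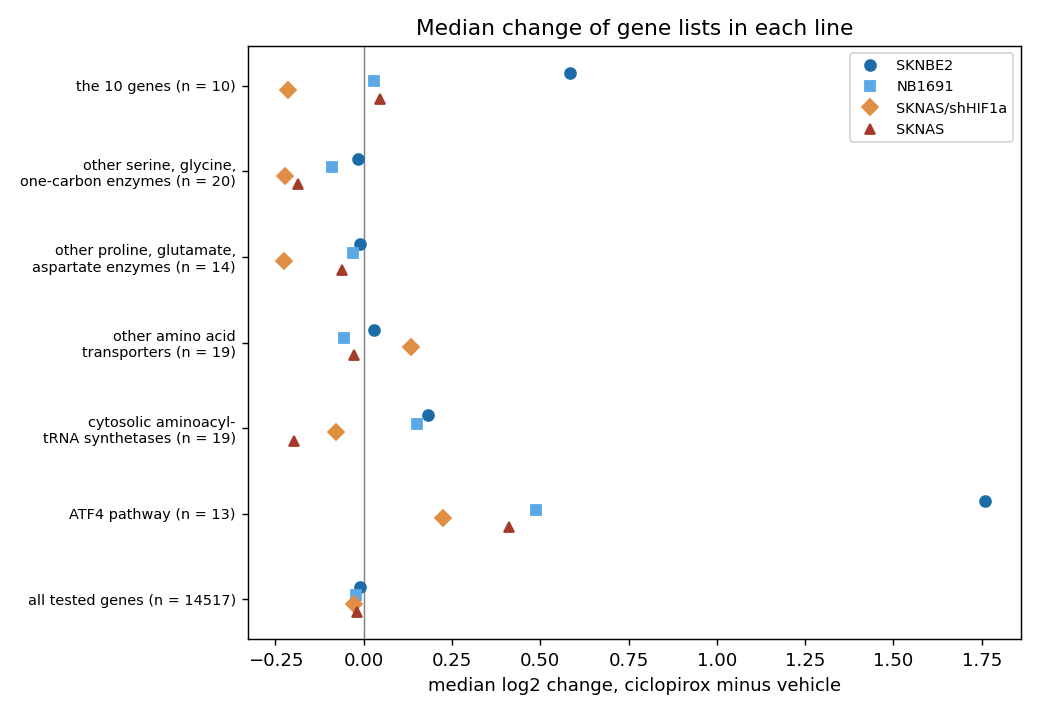
Median log2 change under ciclopirox (ciclopirox minus vehicle, horizontal axis) of the 10 genes and of 5 lists of related genes in each of the 4 lines, with all tested genes in the lowest row and the number of tested genes in each label. The median of the 10 genes is 0.58 in SKNBE2 and between -0.21 and 0.05 in the other lines, while that of all genes lies close to 0 in each line.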

How the data were processed

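The values are the deposited log2 signals of 54715 probe sets on 8 arrays, which the authors made with RMA, per the submitters' processing notes, and which give no depth, so precision rests on the number of arrays. Of these probe sets, 102 were array controls, 40914 carried 1 gene symbol in the platform annotation, 864 several and 12835 none. Array medians lay between 3.47 and 3.52, and no scaling was added. Genes whose brightest probe set had a mean at or above the 40th percentile (log2 3.208) were tested with limma 3.58.1 in R 4.3.3, two-sided, with Benjamini-Hochberg adjustment over 14517 genes and a threshold of 0.05. The ciclopirox fit was blocked on the cell line, which left 3 residual degrees of freedom beside 2.98 from the prior. Vehicle and ciclopirox arrays pair because they come from the same cell line, and their deviations from the treatment means correlated across genes with r of 0.817 to 0.898. The fits were also run on simulated data with known changes, and the outcome is not reported here. The simulated noise was independent between lines, which the SKNAS-derived lines are not. Named genes were the 10 members, in each pathway list up to 3 genes past the test or, where none passed, the 2 with the largest mean change in size, and the 5 genes most like the members' mean profile, and single cell type markers were named after their values were seen. Some genes of the lists are not reported here. The members and lists were chosen with earlier results of these data known. Alternatives were no block, each line left out, the SKNAS-derived lines averaged, other filters, means of probe sets, other normalizations, the labelled myc status and vehicle arrays only.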

Additional observations from a re-analysis of the deposited data

Results flagged for a closer look

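Groups of 4 lines were screened for a value far from the other 3 by Dixon's ratio of gap to range at its 95% critical value, in 30 groups (levels under ciclopirox, levels under vehicle and changes of the 10 genes). There were 2 such values, and chance gives about 1 in 20 groups. The PHGDH change under ciclopirox was -0.39 in SKNAS/shHIF1a, against 0.50 to 0.61 in the other lines (ratio 0.895). The PSAT1 level under vehicle was 10.26 in SKNAS, against 11.62 to 11.81 in the other lines (ratio 0.876).

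For MTHFD2 and PYCR1 the changes of NB1691 and SKNBE2 were positive and those of both SKNAS-derived lines negative. The difference in change was 0.70 for MTHFD2 and 0.65 for PYCR1, and neither passed the test of the difference (limma, adjusted p = 0.374 and 0.458). For comparison, 6.53% of all genes had this arrangement of signs.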

How the results depend on the processing

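For ciclopirox, 0 genes and 0 of the 10 members were called under every alternative run, including the fit without the cell line block (replicate block), the fits without each line and the threshold of 0.1. SLC3A2 kept its direction in all of them, with an adjusted p of 0.117 (filter at the 60th percentile) to 1.00 (no replicate block) and a mean change of 0.67 to 0.87 with lines left out. Near-zero means changed sign: PYCR1 ran from -0.26 to 0.069 and PSPH from -0.16 to 0.090 with lines left out, and with the SKNAS-derived lines averaged PSPH was 0.0099 and PYCR1 0.0075. In the difference in response by origin, lines left out gave -0.017 to 0.95 for PHGDH, -0.0083 to 0.62 for ALDH18A1, -0.099 to 0.50 for SLC3A2 and -0.070 to 0.11 for SLC1A5. Grouping by the labelled myc status gave -0.33 for PHGDH, -0.12 for PSPH and -0.21 for ALDH18A1. The 5 genes called in that comparison became 0 by labelled myc status, 0 to 0 with lines left out and 9 with means of probe sets. For the level by origin, the 534 genes called became 0 by labelled myc status, 243 with vehicle arrays only and 0 to 2352 with lines left out (0 without SKNAS or SKNAS/shHIF1a, 1357 without NB1691, 2352 without SKNBE2). Without NB1691 or SKNBE2, 1 line stands against the SKNAS-derived pair, and the spread is only that between SKNAS and its derivative. The counts of those fits therefore cannot be read as evidence of a difference by origin, and calls of the 10 genes are not given. The SHMT2 difference was 1.77 without NB1691, and the PSPH difference was 1.21 without SKNBE2. Between single lines, means of probe sets turned PSPH to 0.22 for SKNAS/shHIF1a minus SKNAS and ended its calls against SKNAS/shHIF1a, in NB1691 (0.58, adjusted p = 0.114) and SKNBE2 (0.41, adjusted p = 0.251). ALDH18A1 was then called for SKNBE2 minus SKNAS (0.75, adjusted p = 0.044), and SLC1A5 for SKNBE2 minus SKNAS/shHIF1a with no filter, means of probe sets or quantile normalization (0.51, 0.51 and 0.56). The cause of these shifts was not tested. With 1 array per line and treatment, no change within a line can be tested.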
